A study of Arabidopsis thaliana with 4 samples.

Results

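A group of Arabidopsis leaf transcripts was dimmer than in full nutrients soon after phosphate was withdrawn and brighter than in full nutrients days later. The group held 50 of the 8247 probe sets of the array that are not controls. Its members were chosen by their measured values on all 4 arrays of the study. Intensities under a floor of 7.25 were set to that floor, the no-phosphate array had to be at least 2-fold below the full-nutrient array at 4 h and at least 2-fold above it at 100 h, and the brighter array of each pair had to reach 22.45. The floor is the 30th percentile of intensity averaged over the arrays, and 22.45 is the averaged median, both with control probe sets included. A further 6 probe sets met the same thresholds and were left out beforehand, because they report AT1G76960, AT2G33220, AT1G78820, AT3G52500 or TBL45. The reverse pattern, bright early and dim late without phosphate, was met by 22 probe sets.

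Rosette leaves of the Col-5 ecotype were taken 4 h and 100 h after plants were given a solution without phosphate or a full solution, and each of these 4 groups has 1 array. All plants had first been raised on agar medium with sucrose and were then moved to hydroponics under constant light. The full solution held KH2PO4 at 0.25 mM, and the solution without phosphate held 0 mM of it and 0.125 mM of extra K2SO4, which replaces the potassium. That salt also adds sulfate, so phosphate removal and added sulfate cannot be told apart here. The title codes are PO6 and P72 for the arrays labelled no phosphate at 4 h and 100 h, and NPK and P24 for those labelled full nutrients at 4 h and 100 h. Their numbers do not match the labelled times, and P24 has the style of the no-phosphate codes, so the labels were followed for both time and solution and late ratios are also given below with the 4 h full-nutrient array in its place. The number of plants behind an array is not stated. With no replicate and with members picked on these very ratios, no difference below carries a test, and values describe these 4 arrays. Whole rosettes were used, so fewer cells of a type and less RNA per cell cannot be told apart.

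Phosphate is taken up by roots, moved to the shoot in the xylem, and held largely in leaf vacuoles. When it runs short, plants switch on transporters, secreted phosphatases and enzymes that replace membrane phospholipids with lipids free of phosphorus, largely under the transcription factor PHR1 and its SPX-domain partners. In leaves the first days of shortage are cushioned by the vacuolar store, and photosynthesis, wax and cell wall genes can change along with the transport genes.

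Arrays without phosphate also differed from the full-nutrient arrays in control signals. For 9 spike-in probe sets, which read control RNA of bacterial or phage origin, the log2 ratio of no phosphate to full nutrients averaged -0.51 ± 0.12 at 4 h and -1.06 ± 0.24 at 100 h (SD over probe sets). GAPDH probe sets at the 3' and 5' ends, whose ratio climbs when RNA is degraded or labelled short, gave a ratio of 2.61 without phosphate against 4.07 in full nutrients at 4 h, and 2.12 against 4.52 at 100 h. Both control measures thus ran the same way at both times. The members' ratios ran in opposite ways because the rule requires it. The part of either control measure in the members' values was not tested. Leaf identity could be checked only in part. Of 49 listed photosynthesis genes 8 had a named probe set, and their 12 probe sets read from 55.7 to 8880 over all arrays, while none of 12 listed root genes had a named probe set.

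Without phosphate at 4 h, the 50 members ranged from 0.8 to 202.3 in intensity with a median of 18.4, against 24.0 to 1061 with a median of 62.7 in full nutrients. At 100 h they ranged from 22.6 to 2142 with a median of 109.3 without phosphate, against 6.3 to 434.1 with a median of 42.7 in full nutrients. The median log2 ratio of no phosphate to full nutrients was -1.73 at 4 h, with single values from -5.89 to -1.0, and 1.34 at 100 h, from 1.03 to 3.43. Over the 4756 probe sets that reached 22.45 on any array the medians were 0.01 and 0. The rule fixes these directions. By the same 2-fold rule 6.65% of all tested probe sets were lower at 4 h, 4.76% were higher at 100 h, and 1.38% were both. The SD of a log2 ratio between probe sets of 1 gene on the same arrays was 0.33 at 4 h and 0.40 at 100 h (166 probe sets of 78 genes). Only probe sets averaging 22.45 or more over the arrays on the log scale entered it, so it does not cover dimmer ones. That SD covers measurement on an array and neither plants nor hybridisations.

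**Figure D1:**
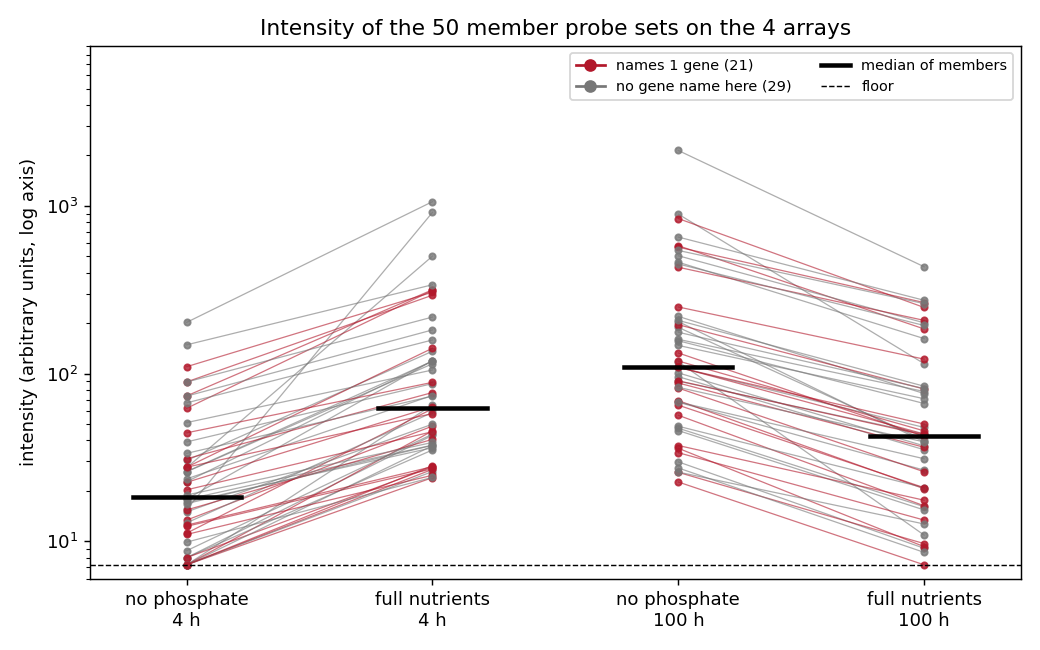
Intensity (arbitrary units, log axis) of each member probe set on the 4 arrays, with values under the floor drawn at 7.25; lines join the arrays of 1 time, black bars are medians, red marks 21 probe sets that name a gene and grey 29 without a name here. The no-phosphate median lies below the full-nutrient median at 4 h (18.4 and 62.7) and above it at 100 h (109.3 and 42.7), as the selection requires.

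Gene names were available for 21 of the 50, each from a different gene, and the other 29 probe sets are not in the annotation used and are given by probe set number. None of the named genes was among 44 phosphate starvation genes, 49 photosynthesis genes, 20 clock genes, 16 cold and dehydration genes, 18 wall-loosening genes or 11 defence genes. Over these lists and the root list only 16 of 170 genes had a named probe set, so the absence of members says little about them.

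The group held a pair of methionine sulfoxide reductase genes, and MSRB6 had the widest swing of the named members. These enzymes reduce oxidised methionine in proteins and so repair oxidative damage. MSRB6 had an intensity of 6.0 without phosphate against 45.6 in full nutrients at 4 h, and 132.9 without phosphate against 42.3 in full nutrients at 100 h. It was below the floor without phosphate at 4 h, so it was at least 6.29-fold lower there, and it was 3.14-fold higher at 100 h. MSRB5 had 73.7 without phosphate against 316.5 in full nutrients at 4 h, and 568.2 against 265.5 at 100 h, which is 4.29-fold lower and then 2.14-fold higher. In both genes the full-nutrient arrays of the 2 times lay close together (log2 ratio of 100 h to 4 h of -0.11 for MSRB6 and -0.25 for MSRB5), so the swing lay in the no-phosphate arrays. MSRB9, the only other gene of the subfamily with a named probe set, did not share the pattern, with 21.7 without phosphate against 38.7 in full nutrients at 4 h and 5.9 against 10.9 at 100 h. MSRB5 and MSRB6 are neighbours on chromosome 4 and encode related proteins. Whether their probe sets detect each other's transcript was not tested.

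Of the named members, 3 encode proteins of families that handle lipids. AT2G44290, which encodes a protein of the lipid-transfer family, had 62.2 without phosphate against 313.7 in full nutrients at 4 h, and 579.6 against 184.8 at 100 h. That is 5.04-fold lower and then 3.14-fold higher, among the larger swings of bright members. AT2G44300, the gene beside it, had 17.6 against 33.9 at 4 h (log2 ratio -0.95) and 40.6 against 38.7 at 100 h (0.07), so it leaned the same way early and showed little difference late. AT2G03980, of the GDSL lipase family, had 8.0 without phosphate against 27.8 in full nutrients at 4 h, and 56.5 against 16.3 at 100 h. AT4G13840, also called CER26, encodes an acyltransferase-like protein needed to make the very long chains of leaf wax. It had 15.4 without phosphate against 40.6 in full nutrients at 4 h, and 249.9 against 122.1 at 100 h. CER26 was the only member at least 2-fold higher at 100 h than at 4 h in full nutrients as well, so its late value of 249.9 exceeded the 4 h full-nutrient array 6.16-fold.

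Another 5 named members belong to unrelated families of transcription, chromatin or F-box proteins. YAB3, a YABBY transcription factor that helps set the lower side of the leaf, had 20.3 without phosphate against 45.1 in full nutrients at 4 h, and 88.0 against 36.4 at 100 h. AT4G17810, a C2H2 zinc finger gene, had 12.3 against 27.1 at 4 h and 82.1 against 26.0 at 100 h, with its late no-phosphate value 3.03-fold above the 4 h full-nutrient array. AT2G44430 encodes a protein with a bromodomain, a module that reads acetylated histones. It had 5.7 without phosphate against 28.3 in full nutrients at 4 h, and 25.8 against 9.7 at 100 h. Its late value without phosphate thus did not exceed the 4 h full-nutrient value. The F-box genes of the group, whose proteins select targets for the proteasome, were AT2G17830 and AT2G32560. AT2G17830 had 3.3 without phosphate against 26.9 in full nutrients at 4 h, and 22.6 against 6.3 at 100 h, so each ratio rests on an array under the floor and is a bound. AT2G32560 had 27.7 against 57.8 at 4 h and 119.0 against 45.6 at 100 h.

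Further named members encode chloroplast, stress, phosphatase-like and other proteins. AT4G02530, a thylakoid lumen protein gene, had 27.7 without phosphate against 141.9 in full nutrients at 4 h, and 195.9 against 81.0 at 100 h. It was 5.12-fold lower and then 2.42-fold higher. AT4G02540, its neighbour on chromosome 4, encodes an unrelated cysteine- and histidine-rich C1-domain protein and had 11.2 against 61.8 at 4 h and 109.6 against 43.7 at 100 h. The neighbours thus had nearly the same ratios, 5.52-fold lower and then 2.51-fold higher for AT4G02540, and the RefSeq gene table does not show them overlapping. AT4G29700 belongs to an alkaline phosphatase-like family related to nucleotide pyrophosphatases. It had 13.4 without phosphate against 48.7 in full nutrients at 4 h, and 69.1 against 20.6 at 100 h (log2 ratios -1.86 and 1.75). AT1G54050, a small heat shock protein gene of the HSP20 family, had 11.0 against 24.8 at 4 h and 33.8 against 13.4 at 100 h, near the dim end of the group. AT2G17340, whose product is related to a domain of pantothenate kinases, stood exactly at the threshold at 4 h, with 44.4 against 88.8, and had 108.9 against 50.1 at 100 h.

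Another 6 named members are given without a role. AT4G33960 was the brightest named gene late, with 841.3 without phosphate against 248.2 in full nutrients at 100 h and 89.3 against 293.8 at 4 h. Its full-nutrient arrays differed by a log2 ratio of -0.24 between times, so most of its swing lay in the no-phosphate arrays. AT2G17240 had 110.1 without phosphate against 306.1 in full nutrients at 4 h, and 431.2 against 207.9 at 100 h. AT1G62422 had 22.5 against 63.5 at 4 h and 64.9 against 20.9 at 100 h, so that the late no-phosphate and the early full-nutrient array matched (ratio 1.02) and the remaining 2 arrays lay near each other too. AT4G01590 had 4.6, below the floor, without phosphate against 24.0 in full nutrients at 4 h, and 35.9 against 9.3 at 100 h, the highest late log2 ratio of a named member (1.95). AT4G36660 had 31.1 against 77.2 at 4 h and 90.7 against 43.1 at 100 h. AT4G18570 had 12.5 against 27.9 at 4 h and 37.3 against 17.6 at 100 h.

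**Figure D2:**
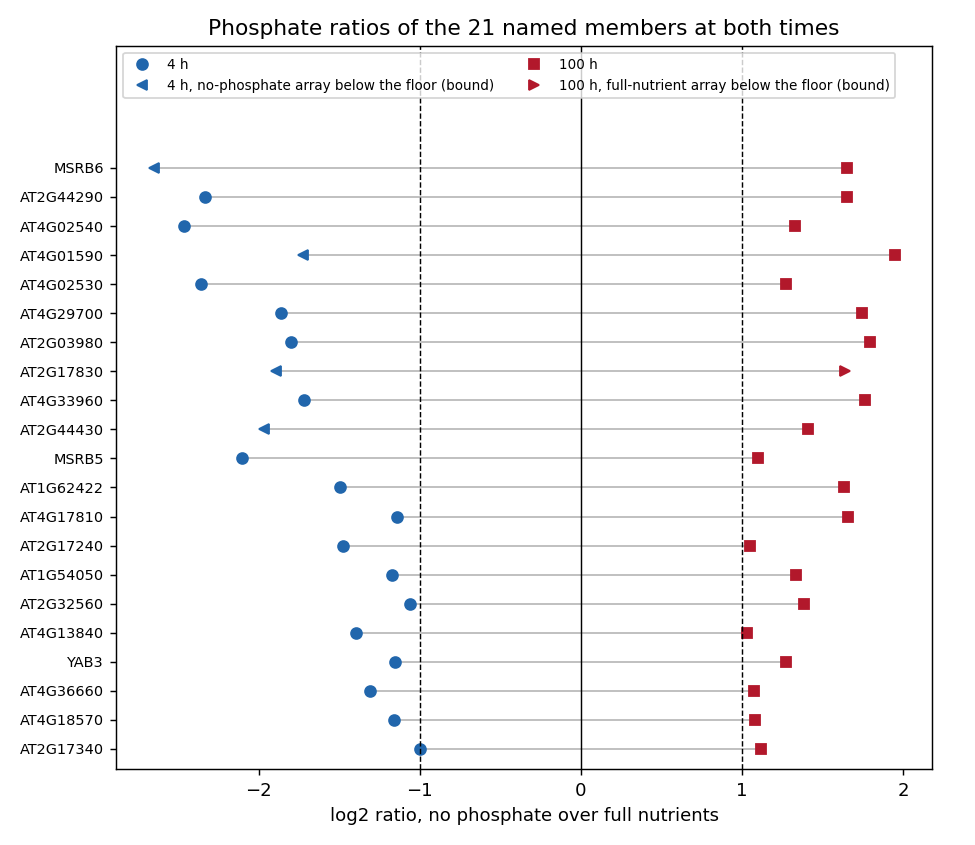
Log2 ratio of no phosphate to full nutrients at 4 h (blue) and at 100 h (red) for the 21 named members, ordered by the difference between the ratios; triangles mark bounds from an array under the floor and dashed lines the 2-fold thresholds of selection. MSRB6 spans the widest range, from -2.65 to 1.65, and AT2G17340 lies on the early threshold.

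The widest swings belonged to probe sets without a gene name. Probe set 12740_s_at had 15.5 without phosphate against 916.0 in full nutrients at 4 h, and 2142 against 434.1 at 100 h. It was 59.1-fold lower early and, between the no-phosphate arrays, 138.2-fold higher at 100 h than at 4 h, the largest time ratio of any member. Probe set 16367_i_at had 8.0 against 42.9 at 4 h and 117.8 against 10.9 at 100 h, the highest late log2 ratio of the group (3.43). Probe set 20450_at had 4.1, under the floor, against 65.2 at 4 h and 188.9 against 40.3 at 100 h. These 3 were brightest late without phosphate. The other 2 of the leading 5 differed in shape, because they were brightest in full nutrients at 4 h. Probe set 15141_s_at had 202.3 without phosphate against 1061 in full nutrients at 4 h, and 894.2 against 114.7 at 100 h. Probe set 17014_s_at had 27.5 against 502.4 at 4 h and 90.3 against 43.6 at 100 h, so its late no-phosphate value was far below the early full-nutrient value. The remaining 24 unnamed members had log2 ratios from -2.74 to -1.04 at 4 h and from 1.03 to 2.38 at 100 h.

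The rule does not fix how the no-phosphate array of one time compares with the full-nutrient array of the other, although every such ratio uses arrays that the rule used. Low to high, 34 of the 50 members ran no phosphate at 4 h, full nutrients at 100 h, full nutrients at 4 h, no phosphate at 100 h. The no-phosphate array was the lowest of all 4 arrays at 4 h for 46 members, of which AT2G17830 tied with full nutrients at 100 h under the floor, and it was the highest of all 4 at 100 h for 42. Being lowest by at least 2-fold against each other array held for 25 members, and being highest by at least 2-fold held for 18. Among all 4756 probe sets whose highest array reached the required level, the same patterns held for 158 and 81. The rule fixes one of the ratios behind each of the member counts and all but fixes another, so the member counts describe the selection. Both 2-fold patterns held for 16 members and neither for 23. At least 4-fold below all other arrays at 4 h were 5 members, and at least 4-fold above all other arrays at 100 h were 0.

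Set against the 4 h full-nutrient array, the late no-phosphate array was at least 2-fold higher for 18 of 50 members, where 9.71% of all tested probe sets were higher, and at least 2-fold lower for 2 members, where 15.3% were lower. The median log2 ratio of the members in this comparison was 0.78, with values from -2.48 to 2.62. It was above 0 for 42 of them. The named genes among the 18 were MSRB6, AT4G33960, AT4G17810, AT2G32560, AT2G03980 and CER26. If the array labelled full nutrients at 100 h is set aside, these 18 members keep both 2-fold differences and the other 32 lose the late one. Set against the 100 h full-nutrient array, 37 members were bright enough to test. The early no-phosphate array was at least 2-fold lower for 22 of them, where 10.3% of all tested probe sets were lower. The full-nutrient array was the brighter of this pair for 45 of all 50 members, so the brightness filter was mostly met through it. The rule also picks members for a dim no-phosphate array at 4 h and a bright one at 100 h. The counts of 18 and 22 thus describe the selection.

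In full nutrients most members were somewhat dimmer at 100 h than at 4 h, which the selection favours, since it asks for a bright full-nutrient array at 4 h and a dim one at 100 h. The median log2 ratio of 100 h to 4 h was -0.74, against -0.03 over the 4756 brighter probe sets, and 43 of 50 members were below 0. At least 2-fold lower were 15 of 50 members, where 12.7% of all tested probe sets were lower, and 1 member, CER26, was at least 2-fold higher, where 6.44% were. Full-nutrient values at 100 h and at 4 h were 114.7 and 1061 for 15141_s_at, and 43.6 and 502.4 for 17014_s_at, the lowest time ratios in full nutrients. Such differences count toward the late phosphate ratio, since a dim full-nutrient array at 100 h raises it. For AT4G01590, AT4G29700, AT2G17830, AT2G44430 and AT1G62422, too, the full-nutrient array was at least 2-fold lower at 100 h than at 4 h (log2 ratios from -1.89 to -1.24).

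Without phosphate all members were brighter at 100 h than at 4 h, and 49 of 50 by at least 2-fold, where 15.3% of all tested probe sets were. The exception was 20603_at (log2 ratio 0.68). The median log2 ratio was 2.38 and the range 0.68 to 7.11. Since the rule sets the time ratio without phosphate at least 2 log2 units above that in full nutrients, this count is a description of the selection. Some members were nearly steady in full nutrients, such as MSRB6, MSRB5, AT4G33960 and AT4G17810, while others had a lower full-nutrient level at 100 h. Many values lay in between, so the members did not form separate classes. In full nutrients 7 members were higher at 100 h than at 4 h by any amount.

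**Figure D3:**
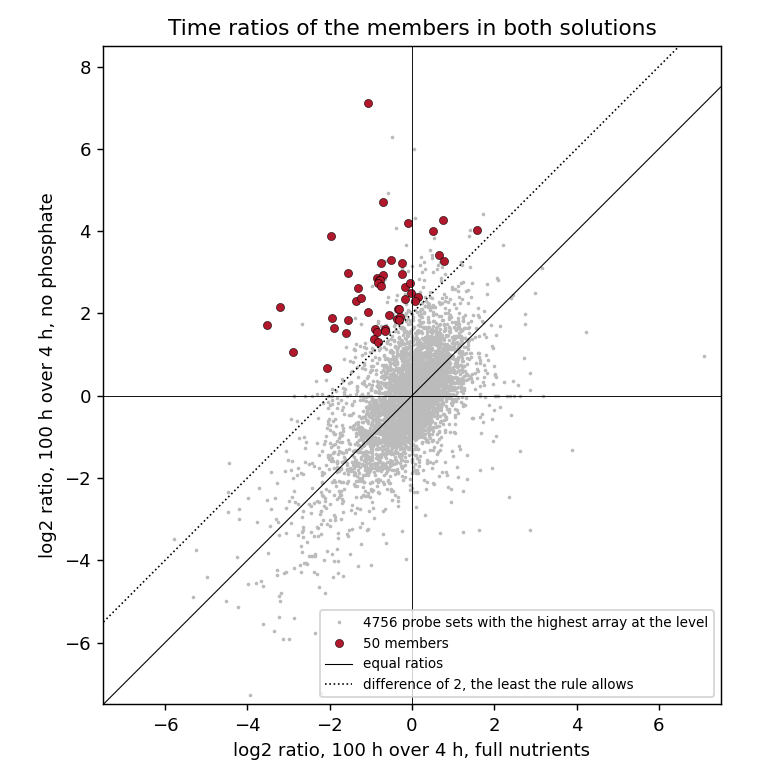
Log2 ratio of 100 h to 4 h in full nutrients (horizontal) and without phosphate (vertical) for the members (red) and for 4756 probe sets that reached 22.45 on any array (grey); the dotted line marks the smallest difference the rule admits. Members spread from -3.53 to 1.59 on the horizontal axis and from 0.68 to 7.11 on the vertical axis.

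Of the named members, 2 genes had further probe sets, which the rule did not select. For YAB3, 14820_g_at had 35.9 without phosphate against 53.7 in full nutrients at 4 h, and 146.6 against 58.8 at 100 h, while 14819_at was under the floor on all 4 arrays. For AT2G32560, 20616_at had 39.1 against 46.0 at 4 h and 175.1 against 63.9 at 100 h. The late difference was therefore at least 2-fold on a second probe set of both genes (log2 ratios 1.32 and 1.45). The early difference had the same sign but was under 2-fold on both (-0.58 and -0.23, against -1.15 and -1.06 on the member probe sets). No other named member had a second named probe set.

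**Figure D4:**
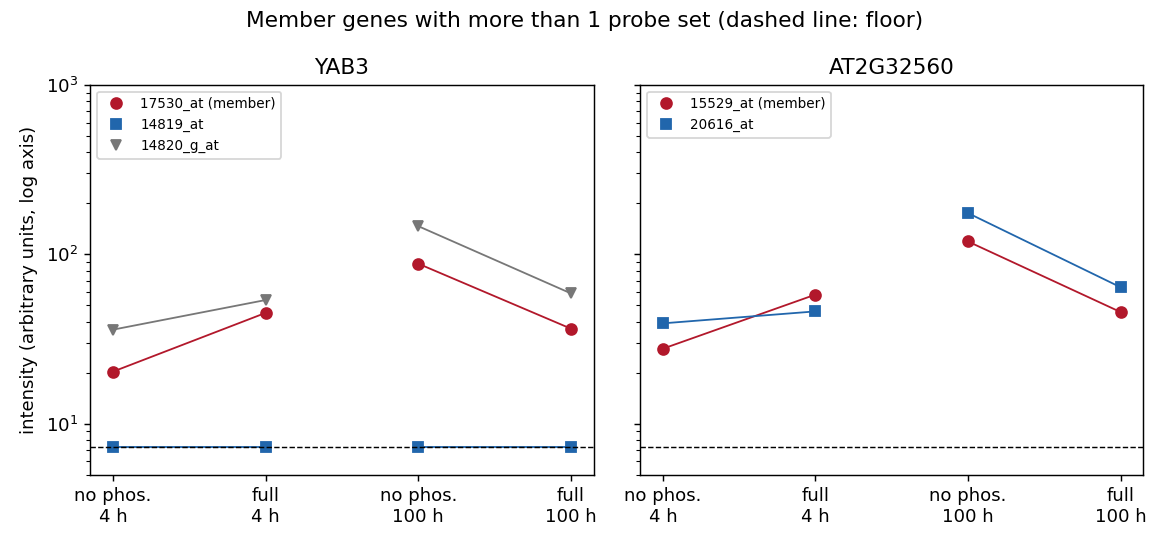
Intensity (arbitrary units, log axis) on the 4 arrays of each probe set of YAB3 (left) and AT2G32560 (right), with lines joining the arrays of 1 time and the floor dashed. At 100 h the second bright probe set of each gene repeats the higher no-phosphate value (146.6 against 58.8, and 175.1 against 63.9), while at 4 h its difference is smaller than on the member probe set.

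Named probe sets of the array cover the chromosomes unevenly, and so did the members. Of the 21 genes 12 were on chromosome 4, or 57.1%, against 31.9% of the 3592 measured genes, and 7 were on chromosome 2, 33.3% against 37.1%. The other 2 were on chromosome 1, which holds 22.0% of measured genes. Among the 1206 pairs of adjacent genes that were both measured, 2 pairs had both genes in the group, AT4G02530 with AT4G02540 and MSRB5 with MSRB6. The 12 other genes beside a member that had a named probe set (13 probe sets) ranged in log2 ratio of no phosphate to full nutrients from -0.95 (AT2G44300) to 1.5 (AT2G44420) at 4 h and from -0.67 to 0.36 at 100 h. At 4 h 5 of these probe sets were lower and 6 higher, with no 2-fold lower one. Affymetrix uses a suffix other than the plain one where probes are shared with other transcripts or a design rule was relaxed. Such probe sets were 15 of the 50 members (30.0%) and 24.3% of all probe sets. Among the 15 were 12740_s_at, 16367_i_at, 15141_s_at and 17014_s_at, all in the leading 5 by swing. The member probe sets of MSRB5 and AT4G33960 were also among them. Those of MSRB6 and 20450_at, the other one of the leading 5, had the plain suffix. Whether these probe sets read other transcripts was not tested.

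Selection thresholds passed through a continuum of values. Just inside, 20045_at had 9.9 without phosphate against 24.1 in full nutrients at 4 h and 25.9 against 12.7 at 100 h (late log2 ratio 1.03), and 12846_s_at had an early log2 ratio of -1.04. Just outside, 18023_s_at had 59.6 against 117.9 at 4 h and 175.9 against 88.0 at 100 h, with log2 ratios of -0.98 and 1.00 that round to the thresholds without meeting them. Probe set 15238_at had -1.45 and 0.99, and 12787_at -1.13 and 0.98. The nearest named gene outside was PIP, with 13.2 against 58.9 at 4 h and 107.3 against 54.7 at 100 h (-2.16 and 0.97). For each of these probe sets the ratio nearest its threshold lay closer to it than the SD between probe sets of a gene.

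The listed genes of the phosphate response and of the clock were almost unmeasured here. Of 44 phosphate starvation genes only LPR1, a root ferroxidase that acts in growth arrest on low phosphate, had a named probe set, and it was under the floor on all 4 arrays. Among 20 clock genes only GI was measured, a large protein that links the clock to flowering. Its brightest probe set had 290.5 without phosphate against 185.3 in full nutrients at 4 h, and 223.6 against 344.3 at 100 h (log2 ratios 0.65 and -0.62). The other 3 GI probe sets had log2 ratios from -0.69 to -0.36 at 4 h and from -0.63 to -0.04 at 100 h, so they disagreed with it early, and none reached 2-fold. Photosynthesis genes had 12 probe sets, of which all 12 were lower without phosphate at 4 h, 1 of them by 2-fold, and 10 were lower and 2 higher at 100 h, none by 2-fold. The probe sets higher late were 1 of the 2 of PSBW, a small photosystem II subunit (log2 ratios -1.83 and 0.53), and that of LHCB4.3, a light-harvesting protein (-0.78 and 0.86). The second PSBW probe set had -0.43 and -0.17. The cold and dehydration genes measured were 3 of 16, and they differed among themselves. KIN2, a cold- and ABA-induced gene, was over 2-fold lower early on both probe sets (-1.12 and -1.19) with little difference late (0.17 and 0.39). COR47, a dehydrin, went the other way on both probe sets, with 1.11 and 0.68 at 4 h and -0.38 and -0.32 at 100 h. LTI30, another dehydrin, had 0.12 and -0.73. Wall-loosening genes were measured for 2 of 18, the expansins EXPA4 (-0.07 and -0.34) and EXPA8 (-0.27 and 0.46). The defence gene measured, 1 of 11, was THI2.1, a thionin. Its brightest probe set had 30.3 without phosphate against 36.4 in full nutrients at 4 h and 38.6 against 4.6 at 100 h (-0.26 and 2.41). The value of 4.6 is under the floor, so the late log2 ratio is a bound. The other THI2.1 probe sets read at most 13.3 on any array.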

How the data were processed

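Values are linear intensities per probe set as deposited by the authors for 4 Affymetrix arrays, with software and summary method not given in the sources used here. Per the labels' protocols, total RNA was copied into biotin-labelled cRNA. The deposited intensities had a mean of 100.2 on each array after trimming 2% at each end, so no further scaling was applied. Controls (50 of 8297 probe sets) were left out. Names came from the platform annotation, which gives 1 gene for 3794 probe sets and several for 70, with 4383 not listed, updated through RefSeq (TAIR10.1), which matched 3784. Log2 ratios were taken after the floor of 7.25, with numpy 2.4.6 and pandas 2.3.3. Tested on simulated data for 8247 probe sets, the rule recovered 200 of 200 patterns planted at 3-fold and called 0 others. Planting was limited to bright probe sets, and the added noise was smaller than the SD between probe sets of a gene. The outcome therefore checks the code and gives no error rate for these arrays. Members, lists and rules were chosen with earlier results of these data known. Every named member is named, and the 5 unnamed probe sets with the largest difference are given in full. The number of arrays limits the precision. Other settings of floor, level, scaling, control and fold were tried. Promoter and protein sequences were not analysed here.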

Additional observations from a re-analysis of the deposited data

Results flagged for a closer look

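Time moved 14 of the 50 members in opposite directions in the 2 solutions. They were at least 2-fold higher at 100 h than at 4 h without phosphate and at least 2-fold lower in full nutrients. Of all 4294 probe sets bright enough to test in both, 23 did the same, and these 23 include the 14 members. The rule favours this combination, because it sets a minimum difference between the time ratios, and the difference was not tested.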

How the results depend on the processing

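Dropping the floor kept all 50 members, and dropping the level filter kept them and added others (65 in all). Neither change could lose a member, because the floor only narrows ratios and the level only removes probe sets. For the same reason a higher floor or level cannot add any. The floor at the 45th percentile kept 39 and quantile normalization 37, each adding none, and the level at the 65th percentile kept 28. A 3-fold rule kept 13. After scaling by spike-in signal 77 probe sets met the rule, 24 of them members. When full nutrients at 4 h served as control for both times, 43 met it, 18 of them members, and AT2G17830 (-0.25) and AT2G44430 (-0.13) turned to lower late. The cause of these changes was not tested, beyond what fewer tested probe sets and a wider fold imply. Members at least 2-fold lower at 100 h in full nutrients numbered 8 with the higher level and, by 3-fold, 8, against 15. The median early log2 ratio was -1.30 with the higher floor and -1.25 with spike-in scaling. The median late one was 2.39 with spike-in scaling and 0.78 with the 4 h control. Spike-in scaling moved the median of the 4756 brighter probe sets by itself to 0.52 at 4 h and 1.08 at 100 h. That scaling multiplies all probe sets of an array by the same factor. Apart from the floor, it could therefore not change where the members' medians lie relative to that median. The 4 h control gives no time ratio in full nutrients. Under no floor, which could lose no member, the higher floor, the higher level and quantile normalization together, 24 members remained. Of these, 8 were named: AT2G44290, AT4G02540, AT4G02530, AT4G33960, MSRB5, AT1G62422, AT2G32560 and AT4G36660. The 4 h control left 10 of the 24, with AT4G33960 and AT2G32560 the named ones. MSRB6 was lost by the higher level alone among those 4. Below the floor, 7 members on the early no-phosphate array and 1 on the late full-nutrient array have only a bound. No paired analysis was possible because each group has 1 array.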
